A study of Mus musculus with 11 samples.

Results

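SOX2 and OTX2 shared 5154 sites in mouse epiblast stem cells (EpiSCs) at which no peak of ZIC2, POU5F1 or POU3F1 was found. A site is a SOX2 ChIP-seq peak on chromosomes 1 to 19 or X that overlapped an OTX2 peak by at least 1 bp and no peak of the other 3 transcription factors (TFs). Such sites made up 8.09% of the 63672 SOX2 peaks on these chromosomes and 65.8% of the 7836 SOX2 peaks that overlapped an OTX2 peak. They were chosen by their measured EpiSC peaks, so the EpiSC scores, widths and overlaps of these peaks are given as descriptions and were not tested. The peaks of activin-free cells, the DNA sequence and the position relative to genes were not used to choose them.

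The EpiSCs were of the 129/Sv strain and were cultured with activin at 20 ng/ml and Fgf2 at 10 ng/ml. A second culture, EpiSCA, was the same line with activin removed for 18 h before harvest. In both cultures a TF carrying the biotin acceptor peptide BLRP at its C-terminus was expressed together with the biotin ligase BirA from a transiently transfected pCAGGS vector, and its DNA was collected with streptavidin and sequenced as fragments of about 150 bp. The endogenous TF was still present, the whole transfected population was used, and each TF was profiled in 1 library per culture. The lists therefore do not tell whether SOX2 and OTX2 were on the same DNA molecule or in the same cell.

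EpiSCs are derived from the postimplantation epiblast and are kept in a primed pluripotent state by activin and Fgf signals. SOX2 is an HMG-box TF that binds sequences of the type ACAAAG or ACAATG and acts in pluripotent cells and in the early neural plate, often beside a partner TF. OTX2 is a homeobox TF that binds GGATTA and is required for the anterior head region of the embryo. Both genes are active in the epiblast and later in the forebrain and midbrain. POU5F1 and POU3F1 are POU-domain TFs that can bind next to SOX2, and ZIC2 is a zinc-finger TF of the epiblast and neural plate.

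Peaks of the 10 lists had a score of at least 50, where the score is -10 times the base 10 logarithm of the MACS p-value. Read depth is unknown, and there are no replicates in any list. The lists were called against input DNA, of which the labels name 1 sample, from EpiSCs. EpiSC lists thus share a control, and whether the activin-free lists used the same input is not given in the sources used here. Scores from different libraries are given side by side and not as differences. Intervals on shares are 95% Wilson intervals, and those on differences between shares are Newcombe intervals. Both cover counting error only. Peaks made by the transfected vectors over coding exons of the 5 TF genes were not among the sites, 0 of which overlapped such an exon.

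The DNA at the highest-scoring sites is shown first, because the places of the SOX and OTX sequences relative to the peak midpoints are the main subject below. Sites were ranked by the lower of their SOX2 and OTX2 scores. Of the first 10, the first 6 without an annotated exon within 150 bp of the SOX2 midpoint are given, and the site near Sema6a is described without its sequence. The sequences are from mm9, plus strand, 5′ to 3′. Capitals mark ACAAAG or ACAATG, or its complement CTTTGT or CATTGT, and GGATTA or its complement TAATCC. Where the SOX2 and OTX2 midpoints were under 200 bp apart, 1 window of 300 bp around the point between them is shown. Otherwise 200 bp around each midpoint is shown, without windows that touch an exon.
Gm9376, both midpoints, chr14:118815461-118815760: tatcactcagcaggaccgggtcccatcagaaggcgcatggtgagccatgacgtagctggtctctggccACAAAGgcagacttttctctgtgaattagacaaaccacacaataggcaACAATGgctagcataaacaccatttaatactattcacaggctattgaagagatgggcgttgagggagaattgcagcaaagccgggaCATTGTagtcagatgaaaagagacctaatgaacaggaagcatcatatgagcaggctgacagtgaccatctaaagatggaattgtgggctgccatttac
Mtf2, both midpoints, chr5:108505804-108506103: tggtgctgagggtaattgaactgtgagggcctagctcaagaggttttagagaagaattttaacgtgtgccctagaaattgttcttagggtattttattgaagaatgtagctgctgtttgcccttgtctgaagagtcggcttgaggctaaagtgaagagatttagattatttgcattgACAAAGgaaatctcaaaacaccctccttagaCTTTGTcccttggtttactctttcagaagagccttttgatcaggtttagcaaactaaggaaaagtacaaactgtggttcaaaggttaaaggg
2500003M10Rik, SOX2 midpoint, chr3:90308017-90308216: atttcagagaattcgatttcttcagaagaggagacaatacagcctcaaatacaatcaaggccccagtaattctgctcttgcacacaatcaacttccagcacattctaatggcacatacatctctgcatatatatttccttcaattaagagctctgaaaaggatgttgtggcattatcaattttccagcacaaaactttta
2500003M10Rik, OTX2 midpoint, chr3:90307233-90307432: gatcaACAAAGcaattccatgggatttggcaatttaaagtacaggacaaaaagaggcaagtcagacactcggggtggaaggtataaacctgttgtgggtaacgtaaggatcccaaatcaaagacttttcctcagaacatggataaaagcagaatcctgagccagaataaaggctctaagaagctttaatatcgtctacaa
Lyrm1, SOX2 midpoint, chr7:127043306-127043505: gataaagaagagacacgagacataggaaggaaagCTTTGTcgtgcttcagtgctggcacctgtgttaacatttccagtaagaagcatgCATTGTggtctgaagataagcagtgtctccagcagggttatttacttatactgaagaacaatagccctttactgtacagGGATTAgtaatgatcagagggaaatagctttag
4930474N05Rik, both midpoints, chr14:37221455-37221754: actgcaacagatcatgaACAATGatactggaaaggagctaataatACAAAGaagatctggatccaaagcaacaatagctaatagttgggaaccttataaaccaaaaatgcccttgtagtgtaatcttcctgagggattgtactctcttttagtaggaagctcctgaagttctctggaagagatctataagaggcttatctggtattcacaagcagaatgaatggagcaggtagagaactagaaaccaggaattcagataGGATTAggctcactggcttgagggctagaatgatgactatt
Dmrta2, SOX2 midpoint, chr4:109612242-109612441: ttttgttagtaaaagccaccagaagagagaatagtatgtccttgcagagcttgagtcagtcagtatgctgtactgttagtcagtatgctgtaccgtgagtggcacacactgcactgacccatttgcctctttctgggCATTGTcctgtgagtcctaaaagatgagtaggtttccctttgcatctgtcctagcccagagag
Dmrta2, OTX2 midpoint, chr4:109611844-109612043: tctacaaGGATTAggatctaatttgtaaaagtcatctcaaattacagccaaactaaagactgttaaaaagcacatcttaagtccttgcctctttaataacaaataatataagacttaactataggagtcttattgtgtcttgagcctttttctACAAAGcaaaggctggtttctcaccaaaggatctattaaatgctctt

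The site with the highest pair of scores, from 118814940 to 118816155 on chromosome 14, had a SOX2 score of 1004 and an OTX2 score of 862. It was intergenic, 149 kb from the nearest transcription start site (TSS) of a protein-coding gene, that of Gm9376. Its window held 3 SOX matches and no GGATTA. The second site, from 108505122 to 108506622 on chromosome 5, was in an intron 3.94 kb from a TSS of Mtf2, which encodes an accessory protein of Polycomb repressive complex 2, with scores of 746 for SOX2 and 953 for OTX2. The intronic site at 2500003M10Rik, from 90306992 to 90309242 on chromosome 3, had scores of 649 and 671 and midpoints 784 bp apart, and its SOX2 window held neither sequence. At Lyrm1, from 127042549 to 127044262 on chromosome 7, the scores were 586 and 593, and the SOX2 window held 2 SOX matches and 1 GGATTA. The intergenic site from 37220968 to 37222102 on chromosome 14, with scores of 808 and 455, held 2 SOX matches and 1 GGATTA in the same 300 bp. The last of the sites shown, from 109611613 to 109613070 on chromosome 4, lay 38.3 kb from Dmrta2, the gene of a TF of the developing cerebral cortex, and had scores of 656 and 433. There the midpoints were 398 bp apart, and the only GGATTA in the 2 windows was in that of OTX2.

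The other sites among the first 10 were near Sema6a on chromosome 18 (780 for SOX2 and 702 for OTX2), Tob1 on chromosome 11 (442 and 433), Rnase12 on chromosome 14 (419 and 572) and Gm10308 on chromosome 17 (433 and 402). Each of the 10 sites also overlapped a SOX2 peak and an OTX2 peak of activin-free cells. At SOX2 scores of 250 or more, an activin-free SOX2 peak overlapped 99.2% of all sites and 99.3% of SOX2 peaks without any other TF. At OTX2 scores of 250 or more, an activin-free OTX2 peak overlapped 99.9% of the sites' OTX2 peaks and 99.9% of OTX2 peaks without any other TF. The count therefore does not set the 10 sites apart from other peaks with high scores. An activin-free ZIC2 peak was found at 1 of the 10 sites, that near Gm10308.

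SOX2 scores of the sites ranged from 50.01 to 1004 with a median of 98.2, and OTX2 scores from 50.01 to 1945 with a median of 119. The SOX2 peaks that overlapped none of the other 4 TFs, 42646 in number and called SOX2-alone peaks below, had a median score of 93.8. The 70797 OTX2-alone peaks had a median score of 95.2. The sites' SOX2 peaks were 733 bp wide at the median and their OTX2 peaks 889 bp, against 719 bp for SOX2-alone and 789 bp for OTX2-alone peaks. A site overlapped 1 OTX2 peak in 5016 cases and 2 in 138. Of the 5164 OTX2 peaks concerned, 428 overlapped a ZIC2, POU5F1 or POU3F1 peak outside the SOX2 peak.

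The shared stretch was 523 bp long at the median, and 1223 sites (23.7%) lay wholly inside the OTX2 peak. At the edge of the rule, 181 sites shared 50 bp or less with the OTX2 peak, and 175 SOX2-alone peaks ended within 50 bp of an OTX2 peak without reaching it. The median SOX2 scores of these sets were 86.5 and 90.7. An activin-free OTX2 peak overlapped 72.4% of the former and 65.1% of the latter. A ZIC2, POU5F1 or POU3F1 peak lay within 100 bp of 170 sites.

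The midpoints of the SOX2 and OTX2 peaks were 307 bp apart at the median, with quartiles of 135 and 541 bp. They lay under 100 bp apart at 987 sites and 600 bp or more apart at 1062. The histogram of distances shows a broad distribution.

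**Figure D1:**
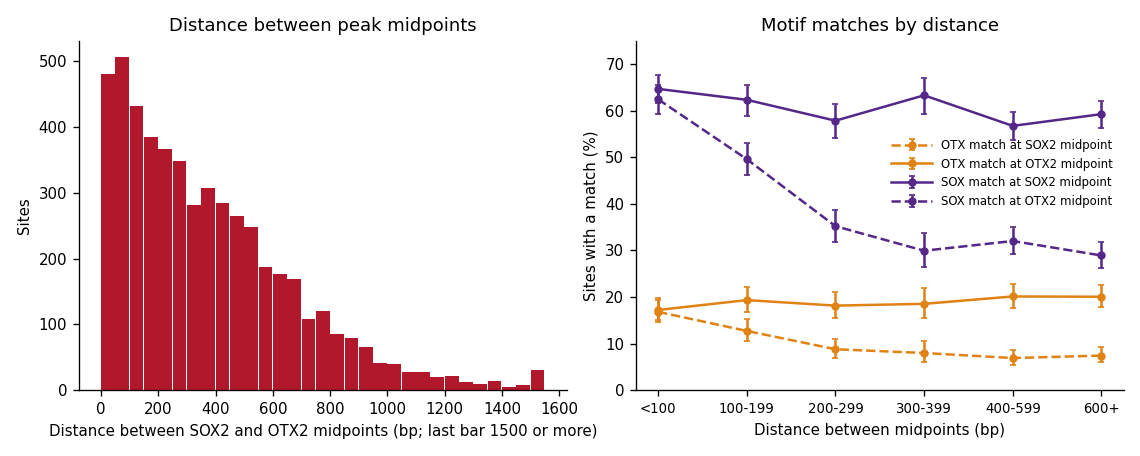
Left, number of SOX2-OTX2 sites by distance between the 2 peak midpoints in bins of 50 bp. Right, share of sites with ACAAAG or ACAATG (SOX match) or GGATTA (OTX match) within 100 bp of the SOX2 or OTX2 midpoint, by distance class, with 95% Wilson intervals; the share of SOX matches at the OTX2 midpoint falls from 62.4% to 28.9% and that of GGATTA at the SOX2 midpoint from 16.8% to 7.44%, with smaller differences at the own midpoints.

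The sequence at the 2 midpoints differed with this distance. A SOX match was found within 100 bp of the SOX2 midpoint at 64.6% (61.6 to 67.6) of the sites with midpoints under 100 bp apart at 56.7% (53.6 to 59.8) of those 400 to under 600 bp apart and at 59.2% (56.2 to 62.1) of those 600 bp or more apart. Within 100 bp of the OTX2 midpoint, the share of sites with a SOX match fell from 62.4% (59.3 to 65.4) in the nearest class to 28.9% (26.3 to 31.7) in the farthest. The interval of the farthest class held the share in windows 1000 bp to either side of the SOX2 midpoints, which was 29.5%.

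GGATTA showed the mirror pattern. Its share at the OTX2 midpoint was 17.2% (15.0 to 19.7) in the nearest class and 20.1% (17.8 to 22.6) in the farthest. At the SOX2 midpoint it fell from 16.8% (14.6 to 19.3) to 7.44% (6.01 to 9.17), with 9.74% in the flanking windows. At the own TF's midpoint, the intervals of all classes overlapped for GGATTA, whereas for the SOX match the interval of the nearest class lay above those of 200 to under 300 bp (54.2 to 61.4) and 400 to under 600 bp. Windows of 200 bp overlap each other when midpoints are under 200 bp apart, so the shares at the 2 midpoints are not separate measurements in the first 2 classes.

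Along the 1572 sites with midpoints 300 to under 600 bp apart, turned so that OTX2 lay to the right, both peaks of sequence could be seen apart. In bins of 25 bp the SOX match reached 12.7% just left of the SOX2 midpoint, against 4.21% beyond 800 bp. GGATTA was at 1.02% in the 2 bins around the SOX2 midpoint, where the mean beyond 800 bp was 1.34%, and reached 3.31% (52 sites) in the bin centred 462 bp to the right, inside the range of the OTX2 midpoints.

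**Figure D2:**
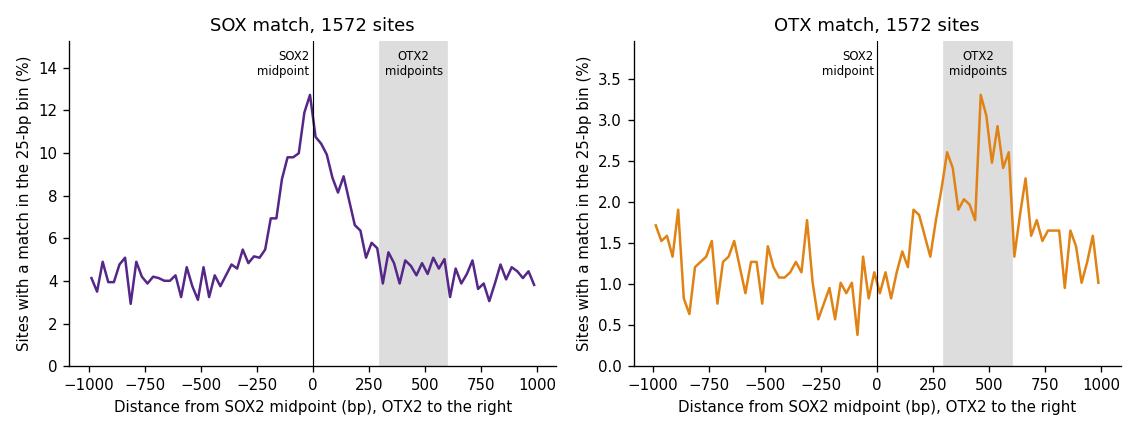
Share of 1572 SOX2-OTX2 sites with midpoints 300 to under 600 bp apart that hold a SOX match (left) or GGATTA (right) in each bin of 25 bp, against distance from the SOX2 midpoint in bp, with OTX2 to the right. The SOX match is highest at the SOX2 midpoint (12.7%), and GGATTA is highest within the grey range of OTX2 midpoints (3.31%).

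Over all sites, a SOX match lay within 100 bp of the SOX2 midpoint at 60.5% (59.2 to 61.9), against 56.8% of SOX2-alone peaks, 57.1% of the 6903 SOX2 peaks shared with POU3F1 only and 57.2% of all SOX2 peaks. The difference from SOX2-alone peaks was 3.78 percentage points (2.36 to 5.19). It lay in ACAAAG, at 41.7% of sites and 37.7% of SOX2-alone peaks, while ACAATG was at 29.2% and 29.6%. The related SOX sequence AACAAT was less frequent at the sites (30.3%) than at SOX2-alone peaks (35.2%). Mean GC content within 100 bp of the SOX2 midpoint was 39.6% at the sites and 38.0% at SOX2-alone peaks. The part of GC content in these and the following sequence differences at SOX2 midpoints was not tested.

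GGATTA lay within 100 bp of the SOX2 midpoint at 10.2% of the sites, 8.43% of SOX2-alone peaks and 8.22% of all SOX2 peaks. The difference from SOX2-alone peaks was 1.80 points (0.954 to 2.69), and that from the sites' own flanking windows was 0.485 points (-0.506 to 1.51). At the OTX2 midpoint of the sites it was found at 18.98%, against 25.1% of OTX2-alone peaks, a difference of -6.10 points (-7.20 to -4.96). The homeobox sequence AGATTA gave 19.8% and 23.7%. GGTAAT, the approximate OTX2 sequence given by the study, was at 6.62% of these midpoints, 7.28% of OTX2-alone peaks and 6.40% of flanking windows. At SOX2 midpoints GGTAAT was at 5.86% of sites and 8.36% of SOX2-alone peaks, a difference of -2.50 points (-3.17 to -1.78). The lower share of GGATTA was seen in each class of OTX2 score, from 18.9% against 25.8% for scores of 50 to 75 to 18.0% against 22.1% for scores of 250 or more. Mean GC content was 41.2% at the OTX2 midpoints of the sites and 43.5% at OTX2-alone peaks. The sites' OTX2 peaks were also wider, at a median of 889 against 789 bp. The part of GC content or width in the difference was not tested.

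SOX matches were more frequent at the sites' OTX2 midpoints than at OTX2-alone peaks, at 40.2% and 28.0%. The difference was 12.2 points (10.8 to 13.6). The sites were chosen by a SOX2 peak, and where midpoints were near each other the OTX2 window took in the SOX2 midpoint. With distance the share fell from 62.4% under 100 bp to 28.9% (26.3 to 31.7) at 600 bp or more. The latter interval held the OTX2-alone share. Both sequences within the same 200 bp of the SOX2 midpoint were found at 6.11% of sites and 3.76% of SOX2-alone peaks. The pair was thus more frequent at the sites than at SOX2-alone peaks, by 2.35 points (1.70 to 3.06). It was absent from this window at most sites. Around the OTX2 midpoint the pair was at 7.94% of sites and 7.14% of OTX2-alone peaks. That difference was 0.791 points (0.0586 to 1.58), so OTX2 peaks without SOX2 held the pair nearly as often.

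Sequences bound by the excluded TFs were also looked up at the SOX2 midpoints. The POU octamer ATGCAAAT was at 2.43% of sites, 1.95% of SOX2-alone peaks, 2.14% of SOX2 peaks shared with POU3F1 only and 1.51% of flanking windows. The SOX-POU composite TTGTNATGC was at 1.61%, 0.980%, 1.19% and 0.553%, respectively. Against SOX2 peaks shared with POU3F1 only, the differences were 0.281 points (-0.253 to 0.837) and 0.423 points (0.00249 to 0.868). The ZIC-type sequence CAGCAGG was at 4.62% of sites, 2.79% of SOX2-alone peaks and 4.27% of flanking windows. The SMAD-type sequence GTCTGG, bound by the effectors of activin signals, was at 8.87% and 7.47%, with 9.53% in the flanking windows. The largest difference from SOX2-alone peaks among these, for CAGCAGG, was 1.83 points (1.27 to 2.46). The part of the higher GC content at the sites in these differences was not tested. In all, 27 sequences were searched for on both strands, some of which overlap each other (GGATTA in GGATTAG, for instance).

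The 2 TFs were next looked up in cells kept without activin. A SOX2 peak of activin-free cells overlapped 4031 of the 5154 sites, or 78.2% (77.1 to 79.3). Among all EpiSC SOX2 peaks the share was 77.6%, and among SOX2-alone peaks it was 77.2%, so that the difference from the latter was 1.03 points (-0.185 to 2.21). This difference depended on the settings, from -0.0133 points (-1.50 to 1.27) with EpiSC scores of at least 100 to 3.75 points (2.32 to 5.16) with activin-free scores of at least 100, and its interval lay above 0 under 5 of the 7 alternatives. An activin-free OTX2 peak overlapped 4548 sites, or 88.2% (87.3 to 89.1), against 17.3% of all EpiSC SOX2 peaks and 6.53% of SOX2-alone peaks. Both were found at 3571 sites (69.3%), against 13.9% of all EpiSC SOX2 peaks. Because the sites were required to have an OTX2 peak in EpiSCs and the other SOX2 peaks were mostly without it, the OTX2 shares are read further below against other OTX2 peaks.

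OTX2 without SOX2 was found in activin-free cells at 977 sites (18.96%), SOX2 without OTX2 at 460 (8.93%), and neither at 146 (2.83%). The TFs that the sites lacked in EpiSCs remained infrequent. Activin-free ZIC2 peaks overlapped 1.53% of the sites, POU5F1 peaks 4.54% and POU3F1 peaks 2.11%, where the shares of all EpiSC SOX2 peaks were 4.83%, 15.4% and 17.1%. At least 1 of the 3 was found at 396 sites (7.68%), against 27.2% of all EpiSC SOX2 peaks and 6.54% of SOX2-alone peaks, which also lacked these TFs in EpiSCs. ZIC2 exceeded SOX2-alone peaks by 1.06 points (0.748 to 1.44), with 1.53% against 0.476%, and the 3 TFs together by 1.14 points (0.405 to 1.93). POU5F1 and POU3F1 differed from SOX2-alone peaks by 0.160 points (-0.411 to 0.792) and -0.0401 points (-0.426 to 0.410).

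**Figure D3:**
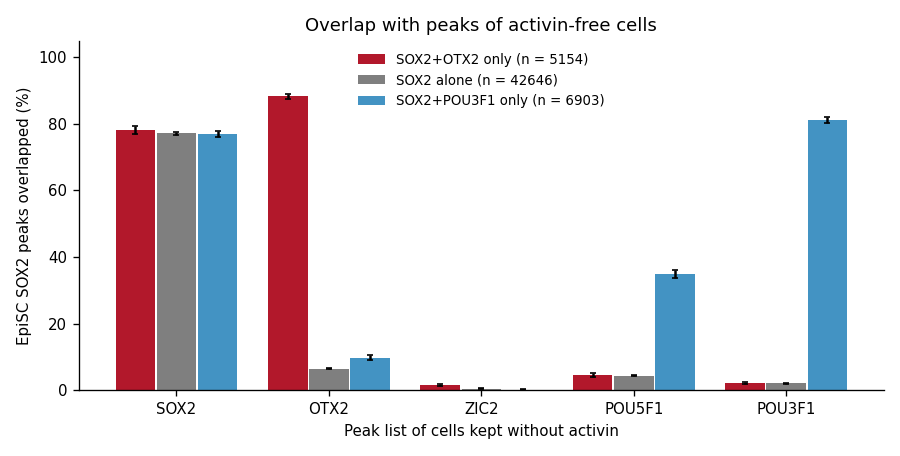
Share of EpiSC SOX2 peaks overlapped by a peak of each TF in activin-free cells, for SOX2-OTX2 sites, SOX2-alone peaks and SOX2 peaks shared with POU3F1 only; error bars are 95% Wilson intervals. The SOX2 shares of the 3 sets are near one another, and the OTX2 share is 88.2% at the sites.

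The 5164 OTX2 peaks at the sites could be compared with other OTX2 peaks of the same list. An activin-free OTX2 peak overlapped 88.9% (88.0 to 89.7) of them, 78.0% of OTX2-alone peaks and 78.1% of all EpiSC OTX2 peaks. The difference from OTX2-alone peaks was 10.9 points (10.0 to 11.8). The OTX2 peaks at the sites were also wider (889 against 789 bp at the median). Unlike OTX2-alone peaks, 428 of them overlapped a ZIC2, POU5F1 or POU3F1 peak. The part of either in this difference, or in those by score below, was not tested. Since OTX2 scores were higher at the sites, the peaks were also compared within score classes. At OTX2 scores of 50 to 75 the shares were 69.1% at the sites and 56.2% among OTX2-alone peaks, at 75 to 100 they were 86.7% and 76.2%, and at 100 to 150 they were 96.1% and 89.4%. The intervals did not overlap in these 3 classes. From 150 to 250 the shares were 98.3% (97.3 to 99.0) and 97.9% (97.6 to 98.2), with overlapping intervals, and from 250 they were 99.9% in each set, so no difference could be seen in these 2 classes.

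The same comparison was made for SOX2. With SOX2 scores of 50 to 75, an activin-free SOX2 peak overlapped 55.8% of the sites and 58.7% of SOX2-alone peaks. In the class from 75 to 100 the shares were 78.1% and 74.6%, and from 100 to 150 they were 87.6% and 86.6%. The sites were thus lower in the first of these classes and higher in the other 2, and the intervals overlapped in each of the 3. The activin-free lists were longer than the EpiSC lists for SOX2 (87781 and 63672 peaks) and OTX2 (113831 and 103109), and their OTX2 peaks were wider, at a median of 1034 against 803 bp. The part of these differences in the shares was not tested.

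**Figure D4:**
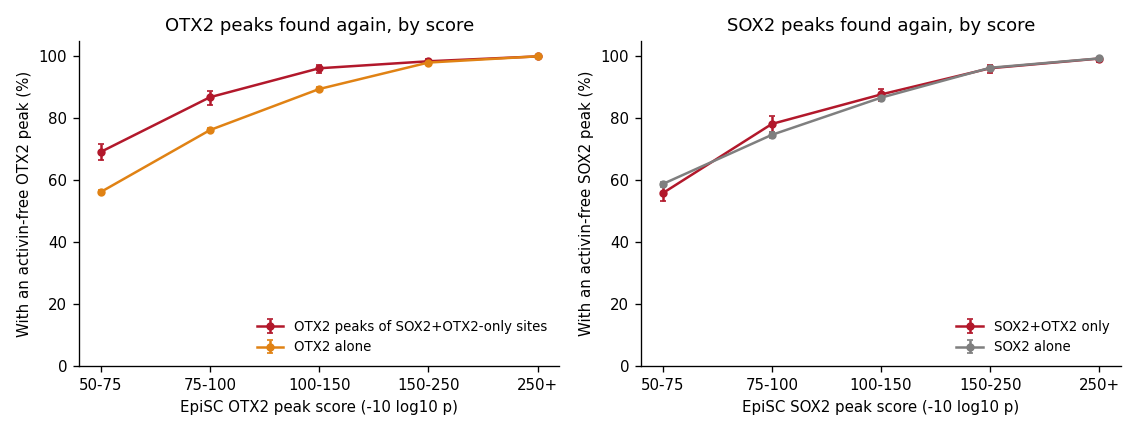
Share of EpiSC OTX2 peaks (left) and SOX2 peaks (right) overlapped by an activin-free peak of the same TF, against classes of EpiSC peak score, with 95% Wilson intervals. OTX2 peaks at SOX2-OTX2 sites lie above OTX2-alone peaks below a score of 150 (69.1% and 56.2% in the lowest class), and the SOX2 curves lie close together.

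Across the 6 distance classes, activin-free SOX2 peaks were found at 75.5% to 81.9% of sites and activin-free OTX2 peaks at 85.6% to 90.3%, with no steady rise or fall with distance. The arrangement of the 2 peaks was also seen in the activin-free libraries, which took no part in choosing the sites. At the 3571 sites with both activin-free peaks, the OTX2 midpoint lay on the same side of the SOX2 midpoint as in EpiSCs in 2942 cases (82.4%). For sites 400 to under 600 bp apart in EpiSCs, the median offset was 488 bp in EpiSCs and 461 bp in activin-free cells, with 94.1% on the same side. For sites under 100 bp apart, the medians were 49.0 and 34.0 bp, with 59.4% on the same side.

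The sequences at the activin-free midpoints of the 3571 sites with both activin-free peaks were also looked up. These peaks overlap the same sites, so the windows can hold much of the same DNA as those above. The shares are therefore not a separate result. A SOX match was found at 58.7% (57.0 to 60.3) of activin-free SOX2 midpoints and 39.1% (37.5 to 40.7) of activin-free OTX2 midpoints of these sites. GGATTA was found at 10.9% (9.89 to 11.9) and 17.1% (15.9 to 18.4).

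Applied to the activin-free lists, the same rule gave 9333 sites, 10.6% of the activin-free SOX2 peaks. Of the 5154 EpiSC sites, 3204 (62.2%) overlapped such a site, and these were 34.3% of the activin-free sites. An EpiSC SOX2 peak was found at 60.3% of the activin-free sites and an EpiSC OTX2 peak at 61.1%.

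In their position relative to genes, the sites resembled OTX2-alone peaks more than other SOX2 peaks. TSSs here were those of all annotated transcripts, coding or not, unlike those used to name genes. The median distance from the SOX2 midpoint to the nearest TSS was 13.6 kb, against 36.1 kb for SOX2-alone peaks, 54.7 kb for SOX2 peaks shared with POU3F1 only and 13.5 kb for OTX2-alone peaks. Within 50 kb of a TSS were 78.4% (77.3 to 79.5) of the sites, 58.1% of SOX2-alone peaks and 80.1% of OTX2-alone peaks. With TSSs of protein-coding transcripts alone, the share of the sites was 67.5%. The sites were 20.3 points (19.1 to 21.5) above SOX2-alone peaks and differed from OTX2-alone peaks by -1.71 points (-2.89 to -0.568). Within 1 kb of a TSS were 5.90%, 2.22% and 4.67%, respectively.

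Introns held 56.4% (55.0 to 57.7) of the site midpoints, exons 3.88% and intergenic DNA 39.7%. SOX2-alone peaks were intronic in 37.8% and OTX2-alone peaks in 52.0% of cases. The sites exceeded SOX2-alone peaks by 18.6 points (17.2 to 20.0) and OTX2-alone peaks by 4.37 points (2.96 to 5.77). GC content of the 10 kb around the midpoint also differed between the sets, with means of 41.6% ± 3.04 (SD, n = 5154) at the sites, 40.0% ± 2.79 at SOX2-alone peaks and 43.3% ± 3.43 at OTX2-alone peaks, and its part in the positions was not tested. Neither TF lay closer to genes within a site, since the OTX2 midpoint was the nearer to the TSS at 49.6% (48.2 to 50.9) of sites.

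**Figure D5:**
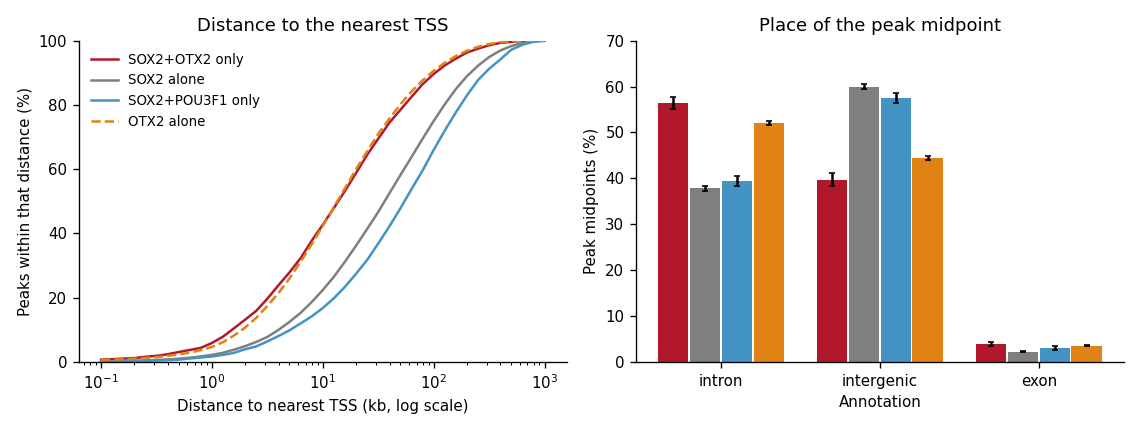
Left, cumulative share of peaks against distance from the midpoint to the nearest TSS in kb on a log scale. Right, share of midpoints in introns, intergenic DNA and exons, with 95% Wilson intervals, in the same colours; the curve of SOX2-OTX2 sites runs beside that of OTX2-alone peaks, and 56.4% of site midpoints are intronic.

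The sites were spread over many genes. By the nearest protein-coding TSS, 3529 of 22208 protein-coding genes had at least 1 site, which is 15.9%, and 2495 of these had 1. Assignment to the nearest TSS does not show that a site acts on that gene. The genes named next were picked for their number of sites, and gene length was not taken into account. Their shares of SOX2 peaks that were sites read against the 8.09% of all SOX2 peaks. Auts2, a neurodevelopmental gene of chromosome 5, had the most with 10 of its 34 SOX2 peaks (29.4%), all of them in introns. OTX2 scores at these ranged from 79.4 to 716. Of the 10, 6 had both activin-free peaks, against 69.3% of all sites.

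There were 5 genes with 8 sites each. In Srgap2, which encodes a GTPase-activating protein of neuronal morphogenesis, 8 of 23 SOX2 peaks (34.8%) were sites. All lay in introns, with OTX2 scores of 56.7 to 444. Tle4, the gene of a Groucho-type corepressor, had 8 of 57 (14.0%), and Diap3, the gene of a formin, 8 of 56 (14.3%). Pik3c3, of a lipid kinase, had 8 of 182 (4.40%) and Zfp608 had 8 of 104 (7.69%), both below the share of all SOX2 peaks. No Pik3c3 site lay inside the gene, and the nearest was 151 kb from its TSS.

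Among the genes with 7 sites, Mllt3, of an elongation complex subunit, and Rere, of a corepressor, each had 7 of 20 SOX2 peaks (35.0%). Nrxn3, of a presynaptic adhesion protein, had 7 of 84 (8.33%), near the share of all SOX2 peaks. Each of the 7 Nrxn3 sites had both activin-free peaks. Rgmb, the gene of a BMP co-receptor, had 7 of 35 (20.0%). Snd1 also had 7 sites, of 19 SOX2 peaks (36.8%), and stood after Rgmb by alphabetical order alone.

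Genes of 11 lists were looked up, of which 8 stand for pluripotency, activin signals, early embryonic tissues and axon guidance and 3 for liver, skeletal muscle and blood. Their counts read against the 15.9% of all protein-coding genes with a site, and also against their SOX2 peaks, since genes in wide intergenic regions collect more peaks. Counts of sites with both activin-free peaks read against the 69.3% of all sites. In the list of primed epiblast genes, 5 of 16 had a site, but only 6 of 198 SOX2 peaks (3.03%, 1.396 to 6.45) were sites, below the 8.09% of all SOX2 peaks. Cdh2, encoding N-cadherin, had 2 sites with SOX2 scores of 323 and 315 and OTX2 scores of 276 and 206. Sites near Zic2 and Zic5, neighbouring zinc-finger TF genes, had SOX2 scores of 138 and 135 and OTX2 scores of 130 and 137. Of the 6 sites, 5 had both activin-free peaks.

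Of 14 genes of the pluripotency network shared by naive and primed cells, 5 had a site (Pou5f1, Sall4, Lin28b, Rif1 and L1td1), and 6 of 42 SOX2 peaks (14.3%, 6.72 to 27.8) were sites. The 2 sites near Sall4, a zinc-finger TF gene, were intergenic on chromosome 2. The site from 168664158 to 168665245, 72.0 kb from its TSS, had scores of 182 for SOX2 and 396 for OTX2 and both activin-free peaks. The other, from 168594699 to 168595269, 2.28 kb from the TSS, had scores of 75.5 and 79.3 and an activin-free SOX2 peak only. The sites near L1td1 and Rif1 had SOX2 scores of 78.9 and 74.9 and OTX2 scores of 168 and 629. Of these 6 sites, 2 had both activin-free peaks. In the list of naive pluripotency genes, 2 of 13 had a site and 4 of 53 SOX2 peaks (7.55%) were sites. There were 3 assigned to Klf5 (SOX2 scores of 231, 149 and 53.3), 307, 338 and 38.8 kb from its TSS. The site assigned to Klf4 (50.1) lay 418 kb from the TSS of that gene.

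Among genes of the Nodal and activin pathway, 6 of 21 had a site and 14 of 182 SOX2 peaks (7.69%, 4.64 to 12.5) were sites, close to the share of all SOX2 peaks. Receptors were represented by Acvr2a, an activin type II receptor gene, with 5 sites, 78.0 to 1500 kb from its TSS. Those with the highest SOX2 scores (287 and 266) had OTX2 scores of 72.1 and 84.7 and lay 78.0 and 837 kb away. Of the intracellular SMAD proteins, Smad2 had 2 intronic sites with SOX2 scores of 566 and 334 and OTX2 scores of 67.5 and 1180. Smad4 and Smad7 had 1 site each, Skil, encoding a repressor of SMAD proteins, had 2, and Inhba, encoding an activin subunit, had 3. The Inhba sites lay 162, 221 and 755 kb from its TSS. Both activin-free peaks were present at 10 of the 14, and Nodal itself had no SOX2 peak assigned.

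Anterior neural plate genes had a site in 11 of 29 cases, with 15 of 309 SOX2 peaks (4.85%, 2.96 to 7.85). The highest SOX2 score was at Pax6, the eye and forebrain TF gene, whose only site of 11 SOX2 peaks was intronic, from 105559618 to 105561425 on chromosome 2, with scores of 321 for SOX2 and 328 for OTX2. The sites next in score were assigned to Meis2 (230 and 101), Nr2f2 (172 and 96.7) and Fezf2 (165 and 130). They lay 6.47, 202 and 43.5 kb from the TSS, respectively. Of the 15, 11 had both activin-free peaks. The sites assigned to Otx2, Zic2 and Zic5 are among the 15 and also count in the primed epiblast list. In the midbrain-hindbrain list 4 of 13 genes had a site and 4 of 25 SOX2 peaks (16%, 6.40 to 34.7) were sites, at Pax5 (270 and 53.9), Irx1 (187 and 256), En1 (86.1 and 182) and En2 (52.1 and 168).

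Primitive streak and endoderm genes had a site in 5 of 21 cases and 6 of 50 SOX2 peaks (12%, 5.62 to 23.8). These were at Wnt3, a signal of the early streak (313 and 126), Lhx1 (139 and 84.9), Sox17 (120 and 115), Eomes (56.1 and 100) and, with 2 sites, Gata4 (114 and 158 at the higher). Axon guidance genes had the most sites, 28, in 10 of 28 genes, but also 845 SOX2 peaks (3.31%, 2.30 to 4.75). Among them were an intronic site of Sema3e (813 for SOX2 and 97.7 for OTX2) and the Sema6a site named above, 125 kb from its TSS. Sites assigned to Epha4 (386 and 119) and Robo2 (302 and 69.5) lay 84.8 and 531 kb from the TSS. Both activin-free peaks were found at 25 of the 28.

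In the lists for differentiated tissues, 2 of 15 liver genes (Ttr and Apob), 1 of 15 skeletal muscle genes (Myf6) and 2 of 14 blood genes (Cd34 and Itgam) had a site, which are 13.3%, 6.67% and 14.3%. Of their SOX2 peaks, 2 of 22 (9.09%), 1 of 76 (1.32%) and 4 of 26 (15.4%, 6.15 to 33.5) were sites, against 8.09% of all SOX2 peaks. The highest SOX2 scores there were 136 at Ttr, 115 at Myf6 and 342 at Cd34. Of further genes looked up, Sox2 had 11 SOX2 peaks, Mycn 4, Fgf5 and Nes 2 each and Nanog 1, and none of these was a site.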

How the data were processed

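Per the labels and the study's methods, the authors aligned each library to mm9 (Bowtie2) and ran MACS against input with a band width of 150 bases. The deposited lists give positions and a score per peak, -10 log10 of the p-value, without reads, so depth is unknown. Peaks outside chromosomes 1 to 19 and X were left out. Overlap was counted from 1 shared bp, and an activin-free peak was counted where it overlapped the EpiSC peak. Motifs were searched for on both strands within 100 bp of midpoints and in flanking windows 1000 bp away. Other SOX2 and OTX2 peaks served as comparison sets. TSSs (86803) and exons came from GENCODE vM1 on NCBIM37, whose chromosome lengths equal those of mm9. Named genes were the 10 with most sites, those of the 11 lists with a site (values for the 4 highest SOX2 scores per list) and 8 that the study discusses. Named sites were the 10 with the highest lower score. The sites, gene lists and motifs were chosen with earlier results of these data known. No test across libraries was possible with 1 library each. Overlap, motif and interval steps were tested on simulated data. There were 12 alternatives planned and 1 added after seeing the data. Python 3.11.15, numpy 2.4.6, pandas 2.3.3, pysam 0.24.0 and matplotlib 3.10.9 were used.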

Additional observations from a re-analysis of the deposited data

How the results depend on the processing

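With EpiSC SOX2 and OTX2 scores of at least 100, the number of sites became 1511, activin-free SOX2, OTX2 and both 92.5%, 96.8% and 89.5%, the OTX2 difference from OTX2-alone peaks 3.35 points, GGATTA 11.3% and the SOX match 57.9%. The SOX2 difference from SOX2-alone peaks became -0.0133 points, a change of sign. With the 50000 highest-scoring peaks of every list, these were 2951 sites, 69.9%, 86.2% and 60.6%, with 4.34% for ZIC2, POU5F1 or POU3F1, differences of 2.84 (SOX2) and 13.2 points (OTX2), and 79.8% within 50 kb of a TSS. Overlap of at least 50% of both peaks left 2483 sites, with activin-free SOX2 at 80.8%, both at 72.3%, a SOX2 difference of 3.65 points, GGATTA at 13.0% and 76.6% within 50 kb. A margin of 500 bp to the excluded TFs gave 5.92% for ZIC2, POU5F1 or POU3F1. Peaks under 1000 bp gave 74.6% for SOX2, 65.8% for both and 63.5% for the SOX match. Activin-free scores of at least 100 gave 59.1%, 73.1%, 44.0% and 3.71% for SOX2, OTX2, both and the excluded TFs, and differences of 3.75 and 17.0 points. Activin-free overlap of at least 50% gave 76.2%, 74.1%, 56.2% and 3.88%. Windows of 50 and 250 bp to either side gave 5.16% and 24.7% for GGATTA and 37.7% and 85.0% for the SOX match, and windows on the shared stretch 13.3% and 52.3%. Protein-coding TSSs alone gave 67.5% within 50 kb. The other 28 values kept their direction and lay within the interval, or for counts and ratios within 1.5 times, of the value reported. Apart from what the setting itself changes (fewer peaks, longer windows), the cause was not tested.

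Every share rests on 1 library per TF and culture, and read depth is unknown, so a missing peak can be binding below the threshold. No paired analysis was possible because each group has 1 sample and no result comes from a test.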

Other observations

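The 6-mer with the highest ratio of sites to flanking windows, ATTCGC, was at 2.27% of SOX2 midpoints and 0.795% of flanking windows (2.85-fold). It marked a longer repeated stretch. In 63 site windows that held the commonest 12-mer around it, the surrounding 252 bp were a median of 99.6% identical to their consensus (lowest 98.4%). At least 20 of its 12-mers were present at 76 sites (1.47%, 1.18 to 1.84), on all 20 chromosomes. The same held for 0.495% of SOX2-alone peaks, 0.00847% of OTX2-alone peaks and 0 of 10308 flanking windows (Wilson upper limit 0.0373%). The 76 sites had median scores of 67.5 for SOX2 and 72.8 for OTX2. An activin-free SOX2 peak overlapped 47 of the 76 (61.8%) and an activin-free OTX2 peak 69 (90.8%). How reads from near-identical copies were placed was not tested. Without the 76 sites, an alternative chosen after seeing the data, the 6-mers with the highest ratios were ACAATG (2.33-fold), ACAAAG (2.17-fold) and ATTGTC (2.08-fold).

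The spacing between GGATTA and the SOX match showed no preferred value at the sites. In the 200 bp around the SOX2 midpoint, 315 sites held both, in 474 pairs, and the commonest spacing and orientation was found in 5. Among SOX2-alone peaks, 118 of 2316 pairs had the same spacing of 26 bp in opposite orientation. Among OTX2-alone peaks, 269 of 6685 pairs shared a spacing of -13 bp on the same strand. Positions ran from the first base of the SOX match along its own strand to the first base of the OTX match on that strand. Whether the pairs at either spacing lay in copies of a repeated stretch was not tested, so neither spacing is read as an arrangement of binding.

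Chromosomes, named after their values were seen, differed in the share of SOX2 peaks that were sites, from 3.76% (3.02 to 4.67) on X to 12.2% (11.2 to 13.3) on 11 and 11.2% (9.67 to 13.0) on 19. X also held 1.88% of all OTX2 peaks and 3.22% of all SOX2 peaks, and chromosome 11 held 7.87% and 5.80%.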
